A study of Mus musculus with 2 samples.

Results

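The genes described here are 10 of the 32285 genes counted in cultured mouse adipose precursor cells, taken as a fixed list of TGF-beta and activin signaling genes. They comprise the ligands Tgfb1, Tgfb2 and Tgfb3, the latency proteins Ltbp1 and Lrrc32, the receptors Tgfbr1, Tgfbr2 and Tgfbr3, the activin A subunit Inhba and its antagonist Fst. All 10 were found in both count matrices, and all of them reached 10 CPM (UMIs of a gene per 1e+06 UMIs) in all 14 precursor clusters, except Ltbp1, which did so in 13.

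TGF-beta ligands are secreted in a latent complex, in which the mature dimer stays wrapped in its own propeptide, and the complex is held by a latent TGF-beta binding protein in the matrix or by GARP, the product of Lrrc32, at the cell surface. Once released, the ligand brings the type II receptor Tgfbr2 and the type I receptor Tgfbr1 together, and these phosphorylate Smad2 and Smad3, while activin uses its own receptors to reach the same Smads and is captured by follistatin. In adipose tissue, TGF-beta is known to restrain adipocyte differentiation and to favor matrix production, and activin A is known as a factor secreted by proliferating precursor cells.

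The study sequenced stromal vascular cells from subcutaneous white (WAT) and interscapular brown (BAT) adipose tissue of male and female C57/BL6J neonates, aged P0 by the labels and P1 by the Methods, and the cells were grown to confluency. Pups were pooled, and each depot gave 1 library of the 10x Genomics 3ʹ assay, so no value below has a replicate and no test was made. The authors grouped the precursor cells of each depot into 7 clusters, among them committed adipogenic precursors (wCAPs, bCAPs), fibro-adipogenic progenitor-like cells (wFAPLs, bFAPLs) and early precursors (wAPC, bAPC). The names in the authors' source data cover part of the cells, from 15 to 674 per cluster, and cluster levels below rest on those cells.

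The white library held 5261 cells and the brown library 7009, with medians of 26239 and 26411 unique molecular identifiers (UMIs) per cell. After the filter, 4331 white and 5958 brown precursor cells remained, with 122901443 and 169524786 UMIs in all. Clusters of glial cells (47 and 68), myeloid cells (29 and 78) and, in BAT, myogenic cells (33) were kept apart. Pdgfra, the receptor that marks adipose precursors, stood at 117 CPM in white and 83.7 CPM in brown precursor cells, and Dlk1, a preadipocyte marker, at 502 and 383 CPM. The libraries shared 9 cell barcodes. Levels are CPM, the share that a gene takes of the summed UMIs of a group, times 1e+06. Intervals beside levels are exact 95% limits from the Poisson distribution, and those beside log2 ratios of CPM are from the conditional binomial. Both cover counting error only, and culture, animals and library cannot be told apart from depot. The clusters were made from these same counts, so levels by cluster are descriptions.

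Among the ligands, Tgfb1 is the founding member of the family (ENSMUSG00000002603, GRCm38, chromosome 7, 25687002 to 25705077, plus strand). Its level was 30.8 CPM in wAPC 1, 26.9 in wCAPs, 27.2 in wFAPLs, 27.7 in wAPC 2 and 30.9 in wAPC 3. These 5 white clusters had overlapping intervals from one rank to the next and spanned 1.15-fold. In wAPC 4, a cluster of 62 cells for which the authors give high Tgfb1 as the mark, the gene reached 149.7 CPM (132-169). In the 15 differentiating wFAPLs it was 14.7 CPM (5.90-30.2), from 7 UMIs. The brown clusters ranged from 24.3 CPM (21.0-27.9) in bCAPs to 49.4 (45.5-53.5) in bAPC 2, and both of these stood apart from their neighbors. The other 5 brown clusters lay between 34.6 and 42.2 CPM, and their intervals overlapped from one rank to the next. Outside the precursors, Tgfb1 was at 301 CPM in white and 297 in brown myeloid cells, at 41.1 and 70.8 in glial cells and at 11.1 in myogenic cells. Of the cell types measured, myeloid cells thus had the highest Tgfb1 level in each library.

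Tgfb2, a ligand known from mesenchymal and smooth muscle development, is on chromosome 1 (ENSMUSG00000039239, 186622792 to 186705989, minus strand). It was near 20 to 40 CPM in most precursors, and the exception was the group of differentiating wFAPLs. There it reached 652 CPM (582-729), against 37.9 (34.7-41.2) in wAPC 1, the next white cluster. The remaining white values were 37.8 in wCAPs, 32.4 in wAPC 4, 25.5 in wAPC 3, 21.2 in wFAPLs and 16.5 in wAPC 2. In BAT, bAPC 4 stood apart at 45.1 CPM (39.2-51.6), above bFAPLs at 28.7, bAPC 1 at 26.2, bAPC 2 at 22.7, bAPC 3 at 20.8, bCAPs at 17.3 and bAPC 5 at 16.1. The last 6 of these overlapped from each rank to the next. The 250 bases before the Tgfb2 start site, from RefSeq on GRCm38.p6, are shown because this ligand had the widest span of levels over the white clusters. They lie at chr1:186705990-186706239 on the minus strand, and capitals mark a TATA box (TATAAA) 31 bases before the start site and the letters CAGACA, a Smad binding sequence, 204 bases before it.
Tgfb2 promoter: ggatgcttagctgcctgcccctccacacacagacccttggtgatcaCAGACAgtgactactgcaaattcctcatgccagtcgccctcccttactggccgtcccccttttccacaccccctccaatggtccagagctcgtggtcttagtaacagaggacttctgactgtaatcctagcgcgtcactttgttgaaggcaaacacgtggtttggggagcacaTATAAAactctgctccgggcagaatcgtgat
Of 32851 promoter windows of this length, 12.4% hold TATAAA on either strand and 17.1% hold CAGACA. A match describes letters in a window and does not show binding.

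Tgfb3, the third ligand (ENSMUSG00000021253, chromosome 12, 86056745 to 86079041, minus strand), was also highest in differentiating wFAPLs, at 721 CPM (647-802). wAPC 4 followed at 137 CPM (120-156), then wAPC 1 at 59.2, wCAPs at 52.6, wFAPLs at 50.5, wAPC 3 at 41.0 and wAPC 2 at 27.7. The group of differentiating wFAPLs, wAPC 4 and, at the low end, wAPC 2 (24.1-31.7) each stood apart from the next white cluster. In BAT, bAPC 4 was highest at 126 CPM (116-137), and the other clusters read 87.8 in bCAPs, 80.2 in bAPC 5, 77.3 in bFAPLs, 73.9 in bAPC 2, 62.2 in bAPC 1 and 56.8 in bAPC 3. Tgfb3 was thus highest in the same brown cluster as Tgfb2. Across 13 clusters of at least 50 labelled cells, the levels of Tgfb2 and Tgfb3 gave a Pearson r of 0.39 on log2(CPM + 1), a description of clusters that share 2 libraries.

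The 15 differentiating wFAPLs were examined cell by cell, since 1 or 2 cells could carry such a level. Tgfb2 had 1 UMI in the lowest cell, 21 in the median cell and 56 in the highest. For Tgfb3 these counts were 2, 20 and 57. Every one of the 15 cells therefore held UMIs of both ligands, and all still did when each cell was thinned to 10000 UMIs, where the shares in the other white clusters were 12.1% to 30.6% for Tgfb2 and 26.2% to 69.4% for Tgfb3. Carrying the label to unlabelled neighbors widened the group to 29 cells, with Tgfb2 at 616 CPM and Tgfb3 at 701. Other genes set these cells apart as well. Acta2, smooth muscle actin, was at 24520 CPM against 2352 to 5035 in the other white clusters, and Myh11, smooth muscle myosin, at 2522 against 2.36 to 102. The 8 mural cell markers summed to 27566 CPM there and to 2404 to 5113 elsewhere in WAT, with none of them at 0. Pdgfra was at 6.29 CPM, from 3 UMIs, against 78.7 to 160.1 in the other white clusters, and Dcn at 52.4 against 298 to 961. Fabp4, an adipocyte fatty acid carrier, was at 1006 CPM, while Adipoq, Plin1 and Cidec had no UMI, which allows up to 6.29 CPM each. The 6 precursor markers, of which Pdgfra and Dcn are 2, summed to 2816 CPM, against 5704 to 6989 in the other white clusters. None of the 6 was at 0. The mural markers and this lower sum thus went against a plain precursor label for these 15 cells. Most of the sum still came from precursor markers other than Pdgfra and Dcn. The part of mural-type expression in the ligand levels was not tested. All 6 endothelial markers were at 0. Against the other labelled white precursors, 3 of the 10 genes were higher past 2-fold, Tgfb2 (log2 ratio 4.38), Tgfb3 (3.80) and Lrrc32 (2.03). The 4 lower ones were Tgfbr3 (-2.19, -2.83 to -1.61), Ltbp1 (-2.10, -3.73 to -0.88), Tgfbr2 (-1.27, -2.18 to -0.49) and Tgfb1 (-1.13, -2.45 to -0.09). They rest on 24, 5, 13 and 7 UMIs in these cells, and the intervals of Ltbp1, Tgfbr2 and Tgfb1 crossed the 2-fold limit. Of all genes tested, 9.06% were higher and 15.7% lower past 2-fold in these cells, so that moves past 2-fold were common there. Shares at the larger sizes of Tgfb2, Tgfb3 and Lrrc32 were not computed.

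**Figure D1:**
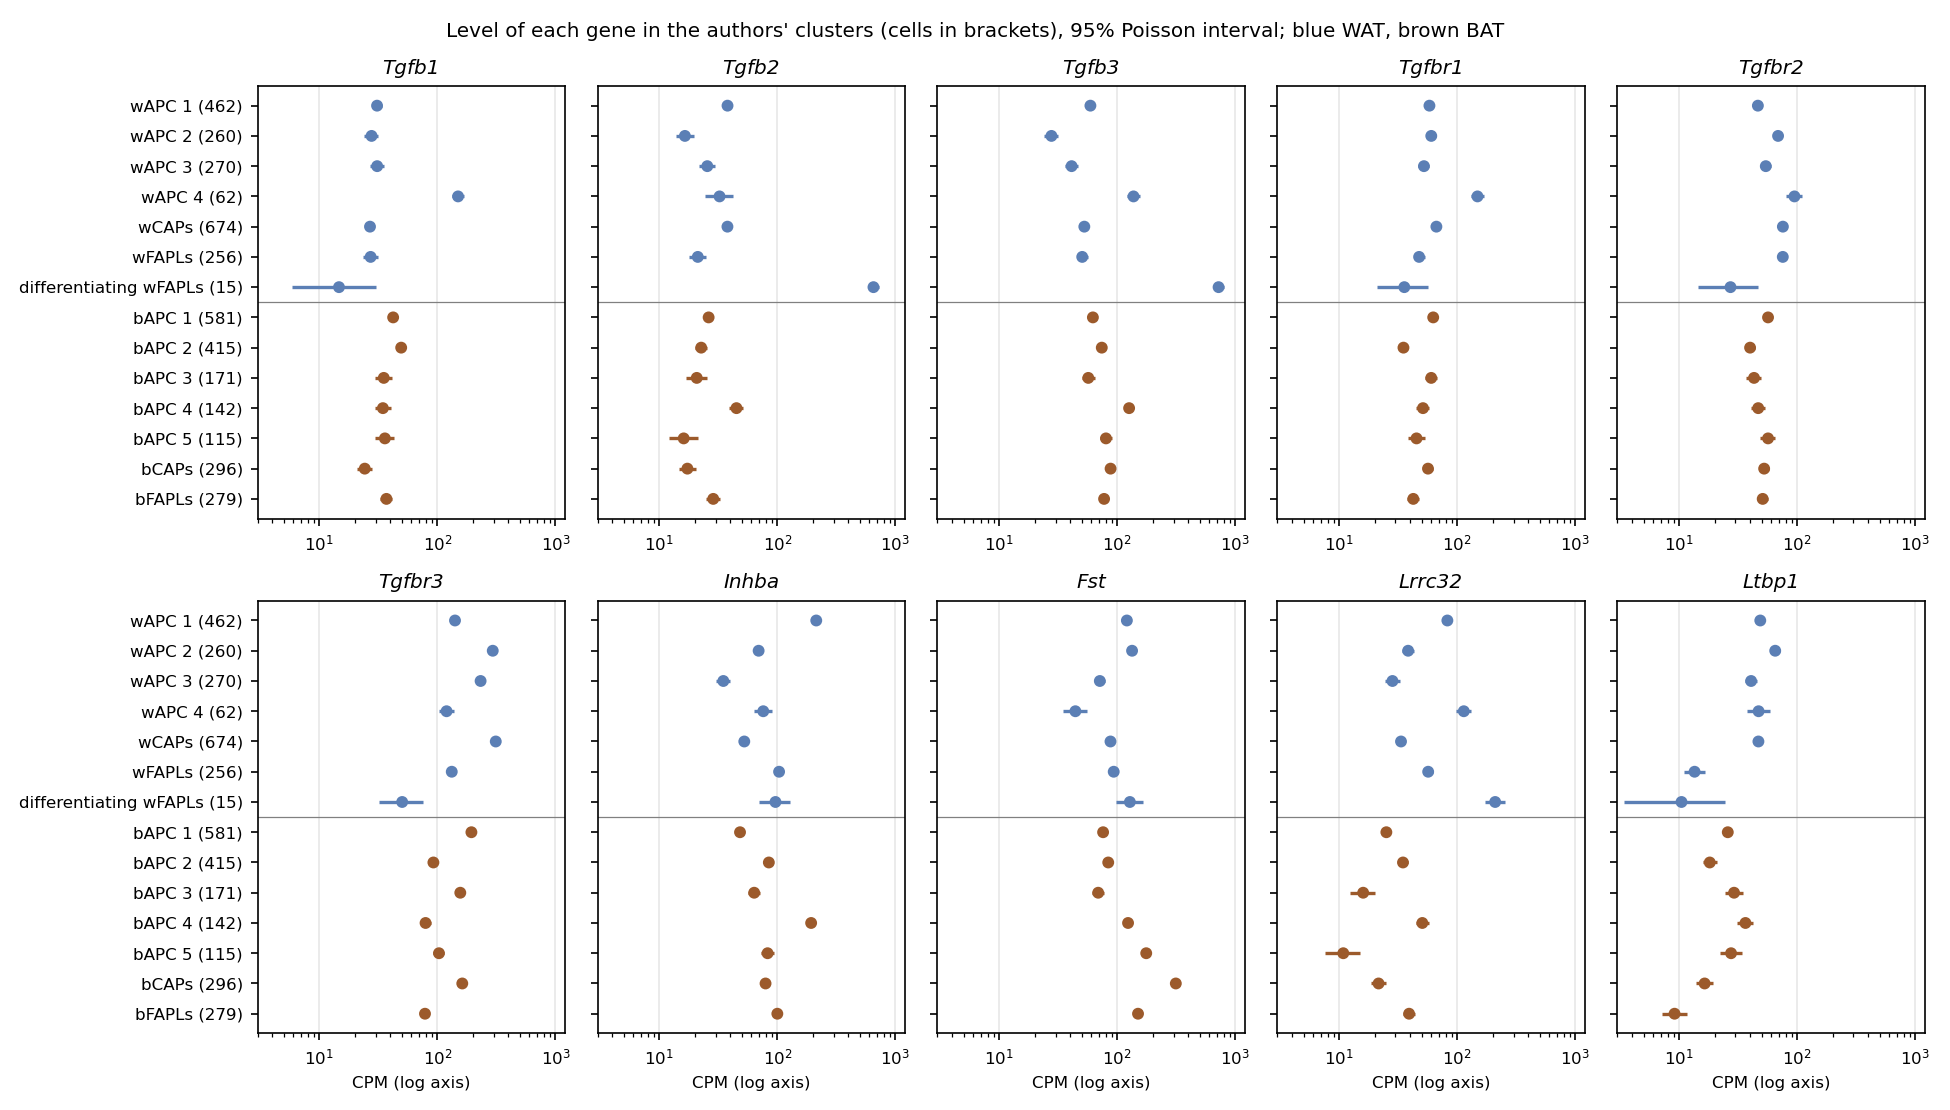
Levels of the 10 genes (CPM, log axis) in the 7 white (blue) and 7 brown (brown) clusters, with the number of labelled cells in brackets; points are levels from summed counts and lines are exact 95% Poisson intervals. Tgfb2 and Tgfb3 stand far to the right in differentiating wFAPLs (652 and 721 CPM), and Tgfb1 and Tgfbr1 in wAPC 4 (149.7 and 148 CPM).

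Among the latency proteins, Ltbp1 encodes a matrix protein that binds the latent complex of TGF-beta (ENSMUSG00000001870, chromosome 17, 75005568 to 75392512, plus strand). It read 65.2 CPM in wAPC 2, 48.7 in wAPC 1, 47.1 in wAPC 4, 47.0 in wCAPs, and 40.7 in the third early cluster, wAPC 3. In wFAPLs it was 13.5 CPM (11.0-16.5) and in differentiating wFAPLs 10.5 (3.40-24.5). Both FAPL groups were below the 5 other white clusters with no overlap of intervals. The brown order was bAPC 4 at 36.5 CPM, bAPC 3 at 29.2, bAPC 5 at 27.6, bAPC 1 at 25.9, bAPC 2 at 18.2, bCAPs at 16.5 and bFAPLs at 9.15 (7.12-11.6). The FAPLs were therefore the lowest clusters for Ltbp1 in BAT too. Against all other labelled precursors of its depot, the log2 ratio was -1.86 (-2.17 to -1.57) in wFAPLs, where 1.18% of genes tested were lower past 2-fold, and -1.38 (-1.75 to -1.03) in bFAPLs, where 1.05% were. Glial cells held 40.2 CPM in WAT and 46.3 in BAT, and myogenic cells 58.7. White myeloid cells had no Ltbp1 UMI, which allows up to 3.55 CPM, and brown ones 0.936 CPM. Ltbp1 has more than one annotated start site, and both windows of 250 bases are shown because a 3ʹ assay counts their transcripts together. They lie at chr17:75005279-75005528 and chr17:75178531-75178780, both on the plus strand of GRCm38.p6, and capitals mark a cAMP response element (TGACGTCA) 73 bases before the first start site and the letters TGTCTG, which read CAGACA on the other strand, 149 and 98 bases before the second.
Ltbp1 first promoter: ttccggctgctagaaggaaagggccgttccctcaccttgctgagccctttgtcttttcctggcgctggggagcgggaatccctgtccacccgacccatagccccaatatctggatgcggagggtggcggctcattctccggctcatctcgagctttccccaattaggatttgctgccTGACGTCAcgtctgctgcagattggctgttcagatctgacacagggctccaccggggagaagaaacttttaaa
Ltbp1 second promoter: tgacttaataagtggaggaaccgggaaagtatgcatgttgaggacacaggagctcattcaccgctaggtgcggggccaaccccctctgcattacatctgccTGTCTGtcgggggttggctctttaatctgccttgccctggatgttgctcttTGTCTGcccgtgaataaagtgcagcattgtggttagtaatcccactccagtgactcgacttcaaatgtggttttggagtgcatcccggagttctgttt
The response element is in 1.55% of the 32851 windows, and neither Ltbp1 window holds an AP-1 site (TGACTCA or TGAGTCA), which 4.46% of windows do.

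Lrrc32 encodes GARP, which tethers latent TGF-beta to the cell surface (ENSMUSG00000090958, chromosome 7, 98489283 to 98502181, plus strand). It was highest in differentiating wFAPLs at 209.7 CPM (171-255), where the median cell held 6 UMIs. wAPC 4 followed at 114 CPM (98.2-131), wAPC 1 at 82.5 (77.9-87.4) and wFAPLs at 56.8 (51.4-62.6), each apart from its neighbors. The lowest white values were 38.4 in wAPC 2, 33.4 in wCAPs and 28.3 in wAPC 3, with overlapping intervals from one to the next. Brown clusters read 50.7 CPM in bAPC 4, 39.1 in bFAPLs, 34.7 in bAPC 2, 25.1 in bAPC 1, 21.6 in bCAPs, 16.0 in bAPC 3 and 10.8 (7.55-15.1) in bAPC 5. Ltbp1 and Lrrc32 thus differed in their order. In FAPLs of both depots Lrrc32 was above its level in CAPs, while Ltbp1 was below. Outside the precursors Lrrc32 was between 0.914 and 8.09 CPM in glial and myogenic cells and brown myeloid cells, and white myeloid cells had no UMI.

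Of the receptors, Tgfbr1 encodes the type I kinase (ENSMUSG00000007613, chromosome 4, 47353222 to 47414931, plus strand). wAPC 4 was highest at 148 CPM (131-168), and the other white clusters read 66.6 in wCAPs, 60.3 in wAPC 2, 58.2 in wAPC 1, 52.3 in wAPC 3, 47.6 in wFAPLs and 35.6 in differentiating wFAPLs. The brown clusters read 62.6 CPM in bAPC 1, 60.3 in bAPC 3, 56.6 in bCAPs, 51.3 in bAPC 4, 45.2 in bAPC 5, 42.5 in bFAPLs and 35.1 in bAPC 2. Apart from wAPC 4, which stood above the rest, neighbors in either order had overlapping intervals. Myeloid cells held 103 CPM in WAT and 107 in BAT.

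Tgfbr2, the type II kinase that binds the ligand first (ENSMUSG00000032440, chromosome 9, 116084293 to 116175360, minus strand), was also highest in wAPC 4, at 94.9 CPM (80.8-111). The remaining white levels were 75.7 in wCAPs, 75.6 in wFAPLs, 68.9 in wAPC 2, 54.3 in wAPC 3 and 46.5 in wAPC 1, down to 27.3 (14.5-46.6) in differentiating wFAPLs. Brown clusters spanned 1.42-fold, from 39.9 CPM in bAPC 2 to 56.7 in bAPC 1, the narrowest brown range of the 10 genes. In BAT no neighbors in the order differed beyond counting error. Myeloid cells read 86.4 CPM in WAT and 91.3 in BAT, and glial cells 51.2 and 50.3.

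Tgfbr3 encodes betaglycan, a co-receptor with no kinase that presents TGF-beta, Tgfb2 above all, to the type II receptor (ENSMUSG00000029287, chromosome 5, 107106570 to 107289629, minus strand). It was at 312 CPM in wCAPs (304-320), 294 in wAPC 2 and 232 in wAPC 3, and lower at 141 in wAPC 1, 132 in wFAPLs, 119.6 in wAPC 4 and 50.3 (32.2-74.9) in differentiating wFAPLs. The first 2 overlapped, wAPC 3 stood between the groups, and the next 3 overlapped from rank to rank. In BAT the values were 194 CPM in bAPC 1, 162.5 in bCAPs, 156 in bAPC 3, 103 in bAPC 5, 92.5 in bAPC 2, 79.4 in bAPC 4 and 78.5 in bFAPLs. Differentiating wFAPLs, where Tgfb2 and Tgfb3 were highest, therefore had the lowest Tgfbr3 of all 14 clusters, though their interval overlapped that of bFAPLs (72.3-85.1). Across the 13 larger clusters Tgfbr3 and Tgfb3 gave the most negative r of the 45 pairs of these genes, at -0.72.

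Inhba encodes the subunit of activin A (ENSMUSG00000041324, chromosome 13, 16011851 to 16031621, plus strand). In WAT it was at 214 CPM in wAPC 1 (206-221), 103 in wFAPLs, 96.5 in differentiating wFAPLs, 76.0 in wAPC 4, 69.4 in wAPC 2, 52.5 in wCAPs and 34.9 (30.5-39.7) in wAPC 3. In BAT it was at 193 CPM in bAPC 4 (181-206), 100.03 in bFAPLs, 84.8 in bAPC 2, 82.7 in bAPC 5, 79.5 in bCAPs, 63.7 in bAPC 3 and 48.3 in bAPC 1. One early precursor cluster in each depot thus stood above the other 6, and the intervals of wAPC 1 and bAPC 4 overlapped. Against the other labelled precursors of its depot, the log2 ratio was 1.77 (1.69-1.84) in wAPC 1, where 0.343% of genes tested were higher past 2-fold, and 1.42 (1.32-1.53) in bAPC 4, where 0.981% were. After thinning, 69.0% of wAPC 1 cells and 71.1% of bAPC 4 cells held an Inhba UMI, against 20.7% to 45.9% in the other 12 clusters. In myeloid and glial cells, which had median depths of 19494.5 to 30076 UMIs, this share was 3.45% to 4.41%. The 250 bases before the Inhba start site are shown for this shared pattern. They lie at chr13:16011601-16011850 on the plus strand of GRCm38.p6, with TATAAA in capitals 91 bases before the start site.
Inhba promoter: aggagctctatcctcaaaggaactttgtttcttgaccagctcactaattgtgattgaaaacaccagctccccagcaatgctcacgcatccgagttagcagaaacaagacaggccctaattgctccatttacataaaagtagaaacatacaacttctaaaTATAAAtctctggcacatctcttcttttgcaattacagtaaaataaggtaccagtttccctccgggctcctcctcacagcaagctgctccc
The window holds neither CAGACA nor an AP-1 site on either strand, which says only that these letters are not in it. Promoter windows were found for 6 of the 10 genes (Tgfb1, Tgfb2, Tgfbr1, Tgfbr2, Inhba and Ltbp1), and not for Tgfb3, Tgfbr3, Fst and Lrrc32.

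Fst encodes follistatin, which binds activin and keeps it from its receptors (ENSMUSG00000021765, chromosome 13, 114452290 to 114458951, minus strand). It was highest in bCAPs at 313 CPM (301-326), followed by 176 in bAPC 5 (162-191), 149.9 in bFAPLs (141-159), 123 in bAPC 4, 83.8 in bAPC 2, 75.9 in bAPC 1 and 68.9 in bAPC 3. The first 4 brown clusters each stood apart from the next. White clusters spanned 3.02-fold, from 133 CPM in wAPC 2, 128 in differentiating wFAPLs and 121 in wAPC 1 through 93.3 in wFAPLs, 87.6 in wCAPs and 71.2 in wAPC 3 to 44.2 (34.8-55.4) in wAPC 4. CAPs of BAT were thus at the top of the order for Fst, while those of WAT were not. After thinning, 81.1% of bCAPs held a Fst UMI and 43.6% of wCAPs did, and 3.45% to 20.6% of myeloid and glial cells. Against the other labelled brown precursors the log2 ratio of Fst in bCAPs was 1.66 (1.59-1.73), where 1.42% of genes tested were higher past 2-fold. Myogenic cells of BAT, at 110.2 CPM, were in the range of the precursors. The order of Fst was not that of Inhba, and the pair gave r = 0.33 over the 13 larger clusters.

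**Figure D2:**
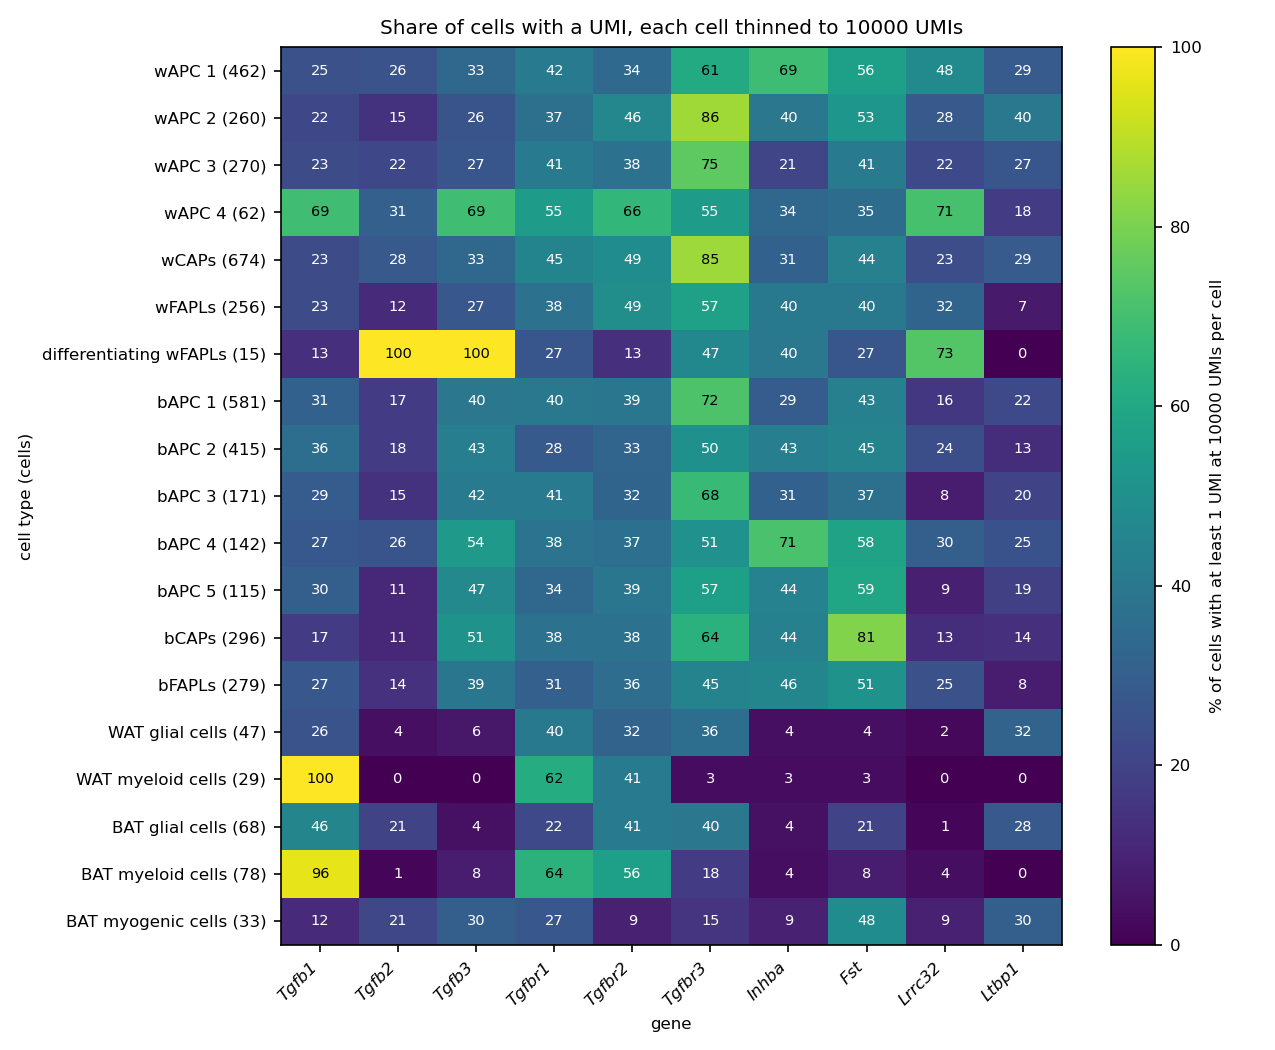
Share of cells with at least 1 UMI of each gene (%, color and number) after each cell was thinned to 10000 UMIs, in 14 precursor clusters and in glial, myeloid and myogenic cells, with the number of cells in brackets. All differentiating wFAPLs held Tgfb2 and Tgfb3, and Inhba was found in 69.0% of wAPC 1 and 71.1% of bAPC 4 cells.

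In wAPC 4, 4 of the 10 genes were higher past 2-fold and 1 was lower. Against the other labelled white precursors, Tgfb1 (log2 ratio 2.40, 2.20-2.59), Tgfbr1 (1.33, 1.14-1.51), Tgfb3 (1.32, 1.12-1.51) and Lrrc32 (1.17, 0.95-1.38) were the higher ones, and Fst was lower at -1.20 (-1.55 to -0.87). Of all genes tested there, 2.1% were higher and 2.98% lower past 2-fold, and since the authors give high Tgfb1 as the mark of the cluster, its value is a description. The signal was spread over cells. The median cell held 3 UMIs of Tgfb1, 3 of Tgfb3, 2 of Tgfbr1 and 2 of Tgfbr2, at a median depth of 25928 UMIs. After thinning, 35.5% of its cells (exact Clopper-Pearson interval 23.7-48.7) held a UMI of at least 1 TGF-beta ligand and of both kinase receptors, against 6.02% to 13.9% in the other clusters of at least 50 cells. In the 15 differentiating wFAPLs no cell had both receptors at that depth, which allows a share of up to 21.8% by the same exact interval. Since myeloid cells also had high Tgfb1 and Tgfbr1, their markers were read in wAPC 4. The 8 markers summed to 11.8 CPM, with Ptprc, Tyrobp, Adgre1 and C1qa at 0, and to 6.61 to 42.0 CPM in the other white clusters. Smad3, a transducer of the signal, was the 1 of 30 other pathway genes tested that was higher past 2-fold in wAPC 4, at 136 against 46.6 CPM (log2 ratio 1.54, 1.34-1.74). Of 27 response genes, Nox4, an NADPH oxidase, was higher (40.1 against 18.0 CPM), and Ccn2 (32.4 against 137 CPM) and Cnn1 (28.9 against 80.4 CPM), which encode a matricellular growth factor and calponin, were lower. These 4 genes are named after their values were seen. With labels carried over, wAPC 4 grew to 108 cells, with Tgfb1 at 164 CPM and Tgfbr1 at 146. The cluster also weighs on how these genes relate. Tgfb1 and Tgfbr1 gave r = 0.65 over the 13 larger clusters and -0.55 over the 12 without wAPC 4.

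Between the depots, Ltbp1 was the only 1 of the 10 genes past 2-fold over all precursor cells, with 47.5 CPM (46.3-48.7) in WAT and 22.1 (21.4-22.9) in BAT, a log2 ratio of 1.10 (1.04-1.16). Of 9037 genes tested, 1.84% were past 2-fold, 1.11% higher in WAT and 0.73% lower. By cluster, 5 of the 7 white levels of Ltbp1 lay above all 7 brown levels, and the exceptions were wFAPLs and differentiating wFAPLs. Lrrc32 followed with 56.2 CPM in WAT and 30.4 in BAT (log2 ratio 0.89, 0.83-0.94), and Tgfbr3 with 229 and 137 CPM (0.74, 0.72-0.77). Tgfb2 was at 35.3 and 25.0 CPM (0.50, 0.44-0.56), Tgfbr2 at 64.8 and 49.1 (0.40, 0.35-0.44), Tgfbr1 at 61.8 and 50.6 (0.29, 0.24-0.33) and Inhba at 99.2 and 81.5 (0.28, 0.25-0.32). These 7 genes were therefore higher in WAT, 6 of them by less than 2-fold. The others were lower in WAT. Tgfb1 was at 32.6 and 37.0 CPM (-0.18, -0.24 to -0.12), Fst at 104 and 136 (-0.39, -0.42 to -0.36) and Tgfb3 at 53.5 and 76.7 (-0.52, -0.56 to -0.48). The median ratio of the 10 genes was 0.34, beside 0.04 over all genes tested. With 1 library per depot, none of these intervals covers the spread between cultures.

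Between CAPs of the depots 3 of the 10 genes were past 2-fold and between FAPLs none, and the contrast of these counts was not tested. For wCAPs over bCAPs, Fst was lower past 2-fold at 87.6 against 313 CPM (log2 ratio -1.84, -1.93 to -1.75), and Ltbp1 (1.51, 1.25-1.79) and Tgfb2 (1.13, 0.87-1.40) were higher, where 2.18% of genes were higher and 2.14% lower past 2-fold. Tgfbr3 reached 0.94 (0.86-1.03). For wFAPLs over bFAPLs none of the 10 genes passed 2-fold, where 1.69% of genes did. The largest values were 0.75 (0.60-0.90) for Tgfbr3, -0.68 (-0.82 to -0.54) for Fst and -0.62 (-0.81 to -0.42) for Tgfb3. Tgfb3 and Fst were thus lower in the white cells in both comparisons. Tgfbr3, Tgfbr2 and Lrrc32 were higher in both, and each of these genes had its intervals on its side of 0. Ltbp1 was also higher in both, but for FAPLs it passed the 10 CPM filter only through wFAPLs and gave -0.13 after thinning. Cells with Y gene UMIs gave 0.00 for Tgfb3 and -0.13 for Tgfbr2 in FAPLs. Those values rest on 57 wFAPLs and 47 bFAPLs, with no interval computed.

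**Figure D3:**
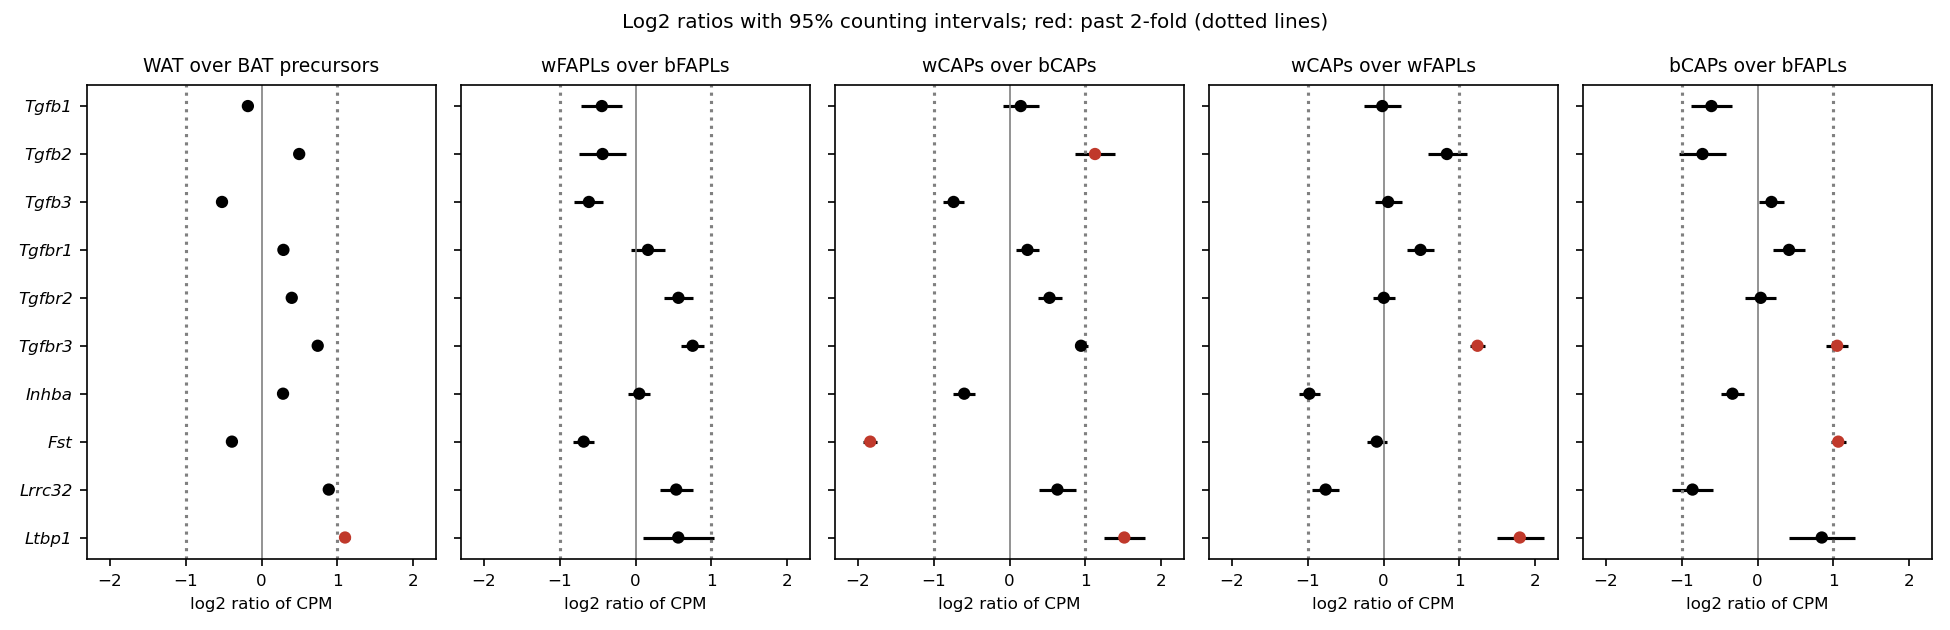
Log2 ratios of CPM for the 10 genes in 5 comparisons, with exact 95% conditional binomial intervals; red points are past 2-fold (dotted lines at -1 and 1). Ltbp1 is past 2-fold between depots (1.10), and Fst in wCAPs over bCAPs (-1.84).

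CAPs were next set against FAPLs within each depot. In WAT, Ltbp1 (47.0 against 13.5 CPM, log2 ratio 1.80, 1.49-2.11) and Tgfbr3 (312 against 132 CPM, 1.24, 1.14-1.34) were higher in CAPs past 2-fold, where 1.6% of genes were higher and 2.25% lower. Thinned to 10000 UMIs per cell, Ltbp1 gave 2.59 in WAT, above its interval. Inhba was just inside the 2-fold limit in the other direction, at 52.5 against 103 CPM (-0.98, -1.12 to -0.84). Lrrc32 gave -0.76 (-0.95 to -0.58), Tgfb2 0.83 (0.58-1.10) and Tgfbr1 0.49 (0.31-0.66). For Tgfb1, Tgfb3, Tgfbr2 and Fst the interval held 0. In BAT, Fst (313 against 149.9 CPM, 1.06, 0.96-1.17) and Tgfbr3 (162.5 against 78.5 CPM, 1.05, 0.91-1.19) were higher in CAPs past 2-fold, where 2.01% of genes were higher and 1.86% lower. Both lay close to the limit, and with cells scored as G1 only neither passed it. Ltbp1, which passed the filter only through bCAPs, gave 0.85 (0.42-1.29), Tgfbr1 0.41 (0.21-0.62), Inhba -0.33 (-0.49 to -0.18), Tgfb1 -0.61 (-0.88 to -0.34) and Lrrc32 -0.86 (-1.14 to -0.59). The co-receptor Tgfbr3, the matrix protein Ltbp1 and the type I receptor Tgfbr1 were therefore higher in CAPs of both depots. Inhba and Lrrc32 were higher in FAPLs of both. The exception was brown cells with Y gene UMIs, which gave 0.34 for Inhba and -0.01 for Tgfbr1. Those values rest on 50 bCAPs and 47 bFAPLs, with no interval computed. Tgfb2 was on opposite sides, at 37.8 CPM in wCAPs against 21.2 in wFAPLs, and 17.3 in bCAPs against 28.7 in bFAPLs.

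Other genes of the pathway were read from a list of 41, with receptors, activators, antagonists and Smads. Between the depots over all precursor cells, 29 passed the filter of 10 CPM and none was past 2-fold, where 1.84% of all genes were. For wCAPs over wFAPLs, 31 were read and 2 were lower past 2-fold, where 2.25% of all genes were. They were Itgb8, an integrin subunit that activates latent TGF-beta, at 6.19 against 15.6 CPM (-1.34, -1.72 to -0.95), and Fstl3, a relative of follistatin, at 5.05 against 11.0 CPM (-1.12, -1.57 to -0.68). For bCAPs over bFAPLs, where 1.86% of all genes were lower, 3 of 32 were, again Fstl3 (2.80 against 11.1 CPM, -1.99, -2.72 to -1.31) and Itgb8 (10.7 against 25.6 CPM, -1.26, -1.64 to -0.88), and Ltbp4, another latency protein, at 7.19 against 15.3 CPM (-1.08, -1.56 to -0.62). In WAT Ltbp4 was just inside the limit at -0.98 (-1.30 to -0.65). All of these list genes were low, and most passed the 10 CPM filter only through the FAPLs, which favors this direction (Itgb8, Fstl3 and Ltbp4 in WAT, Fstl3 and Ltbp4 in BAT). No gene of the list passed only through the CAPs. The list's median log2 ratio was -0.03 in WAT and -0.10 in BAT, beside 0.01 and 0.04 over all genes tested.

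Genes known to respond to TGF-beta were read from a second list of 28. Over all precursor cells, none of the 27 that passed the filter was past 2-fold between the depots, where 1.84% of all genes were. The list's median was -0.12 beside 0.04 over all genes. For wCAPs over bCAPs, 2 of 27 were higher and 3 lower past 2-fold, where 2.18% of all genes were higher and 2.14% lower. The list's median there was -0.27 beside 0.01. For wFAPLs over bFAPLs, 0 of 26 were past 2-fold, where 1.69% of all genes were. For wCAPs over wFAPLs, where 2.25% of all genes were lower, 2 of 27 were, Ccn2, a matricellular growth factor, at 48.7 against 166 CPM (-1.77, -1.89 to -1.65) and Cnn1, calponin, at 41.2 against 119 CPM (-1.52, -1.67 to -1.38). For bCAPs over bFAPLs, where 2.01% of all genes were higher, 1 of 26 was, Snai2, a mesenchymal transcription factor, at 94.0 against 43.2 CPM (1.12, 0.93-1.31). Ccn2 and Cnn1 are also known to respond to actin and Hippo signals. In the clusters with the highest Inhba, Ccn2 and Cnn1 were among the list genes that were higher past 2-fold, as were 0.343% of all genes in wAPC 1 and 0.981% in bAPC 4. In wAPC 1 Ccn2 was at 305 CPM against 76.7 in the other white precursors, and Cnn1 at 131 against 61.6. In bAPC 4 Ccn2 was at 505 CPM against 119.9 and Cnn1 at 217 against 107. Thbs1, an activator of latent TGF-beta on the pathway list, was past 2-fold in both as well, at 1237 against 492 CPM and 1805 against 712. Thbs1 and these cluster values were picked out after they were seen.

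**Figure D4:**
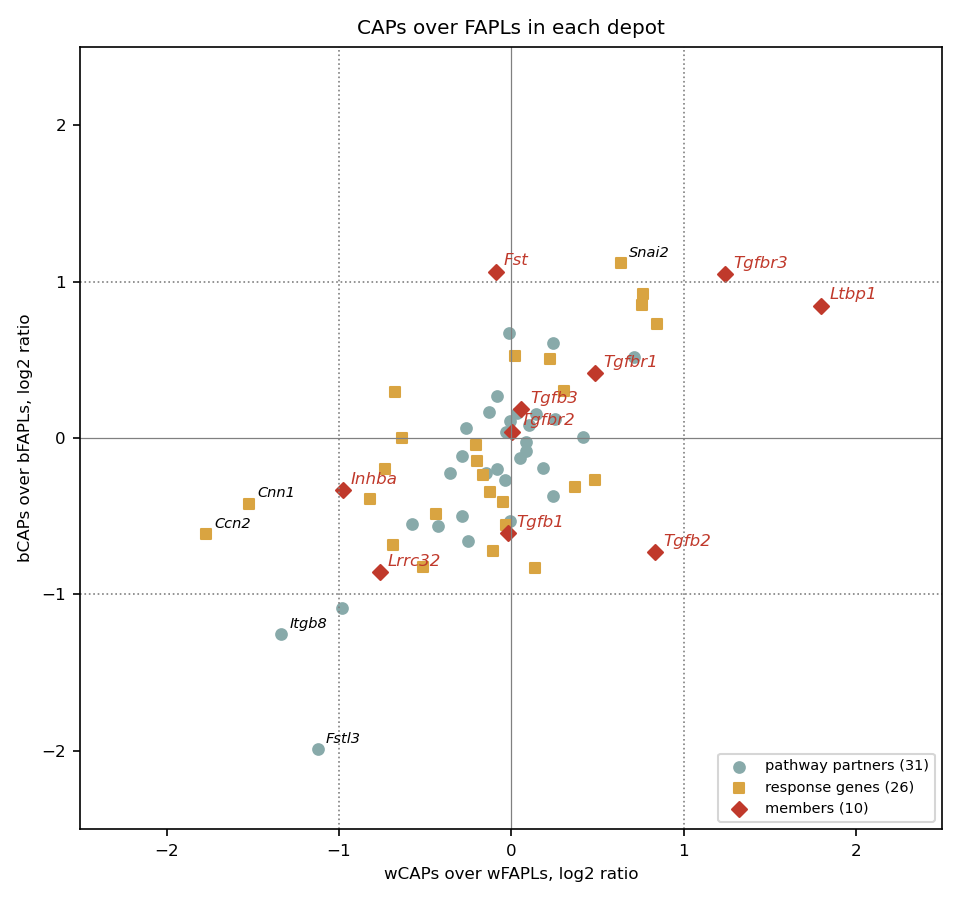
Log2 ratio of CAPs over FAPLs in WAT (x axis) and BAT (y axis) for the 10 genes (red), 31 pathway genes and 26 response genes; dotted lines mark 2-fold. Tgfbr3 and Ltbp1 lie on the side of CAPs in both depots, Fstl3, Itgb8 and Lrrc32 on the side of FAPLs, and Tgfb2 (0.83 and -0.73) on opposite sides.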

How the data were processed

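Cultured white and brown adipose precursor cells were measured in 1 library each. The authors deposited counts of UMIs per gene and cell, made with Cell Ranger 7.0.1 on mm10 (per the submitters' processing notes), with no normalization. This version counts intronic reads by default. Reads of opposite-strand neighbors such as Ttll5 at Tgfb3 and Gm48444 at Inhba are kept apart by strand. The annotation also holds same-strand features inside Tgfbr3 (Gm43422, Gm43423 and Gm42900) and Ltbp1 (Gm6276). They are not among the counted genes, and their part in the counts of Tgfbr3 and Ltbp1 was not tested.

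Cells were filtered by the limits in the paper's Methods (3900 to 7700 genes, 1.7% to 5% mitochondrial UMIs, 6000 to 60000 UMIs), counting only genes found in at least 3 cells, a minimum set here, which left 4407 white and 6137 brown cells. Glial, myeloid and myogenic clusters were found with Seurat 5.3.0 in R 4.3.3 (2000 variable genes, 10 components, resolution 0.5), each named from at least 3 fixed markers at 50 CPM or more and over 2 times the other clusters. Precursor clusters are the authors' labels, given for part of the cells. Labels were carried to the other cells by vote of 15 neighbors, which returned 90.6% of held-out white and 86.8% of held-out brown labels. No doublet caller was run.

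A gene counted as past 2-fold when the log2 ratio of CPM was at least 1 in size, among genes with at least 10 CPM in either group. With 1 library per group there is no test. Where a UMI count was 0, the limit given is 3 counts of the total. The genes named are the 10 of the list, genes of the lists of other pathway genes and response genes past 2-fold between depots or between CAPs and FAPLs (at most 6 per comparison), and for each of the 10 the 3 genes with the highest Pearson r of log2(CPM + 1) over 13 clusters of at least 50 labelled cells. The 10 genes, the lists and the comparisons were chosen with earlier results of these data known. Alternatives were a wider filter, thinning to 10000 UMIs, G1 cells, the mean of each cell's CPM, centring on genes at 50 CPM or more, no filter, 1.5-fold, cells by Xist and Y genes, and labels carried over. Leaving out shared barcodes was added after the data were seen. Neighbors were found with scikit-learn 1.9.0 in Python 3.11.15, tables were handled in pandas 2.3.3, intervals came from scipy 1.17.1, sums from numpy 2.4.6, and figures from matplotlib 3.10.9. The statistics were tested on simulated Poisson counts, which leave out spread between cells and between cultures. Positions are from GENCODE on GRCm38 and promoters from RefSeq on GRCm38.p6. The values of 1 gene that the rule names are not reported here. Velocity, fate mapping and regulons were not analysed here.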

Additional observations from a re-analysis of the deposited data

Results flagged for a closer look

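Tgfb2 was picked out because its contrast between CAPs and FAPLs took opposite sides in the depots. The log2 ratio was 0.83 (0.58-1.10) for wCAPs over wFAPLs and -0.73 (-1.04 to -0.41) for bCAPs over bFAPLs. Neither value passed 2-fold, each depot is 1 library, and the difference between the depots was not tested.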

How the results depend on the processing

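With calls at 1.5-fold, the number of the 10 genes past the limit grew from 1 to 3 between the depots (5.15% of all genes tested passed 1.5-fold), from 2 to 5 for wCAPs over wFAPLs (8.71%), from 2 to 6 for bCAPs over bFAPLs (9.9%), from 0 to 3 for wFAPLs over bFAPLs (6.14%) and from 3 to 7 for wCAPs over bCAPs (12.7%), since the limit is lower. For bCAPs over bFAPLs the count was 0 with G1 cells only and 1 with Xist cells only, and the cause was not tested. Of 400 ratios of the 10 genes under the alternatives, 22 changed sign, each of them under 2-fold in the main values, and 5 moved by more than 1.5-fold. The largest shift was in Ltbp1 for wCAPs over wFAPLs, at 2.59 with thinned cells and 1.80 with all UMIs. Ratios of cells with Y genes left the interval of the main value most often, in 30 of 50 cases, against 15 of 50 for thinned cells, 11 for G1 cells, 6 of 40 for carried labels, 5 of 50 for Xist cells and 1 of 50 for the mean of each cell's CPM. Centring and, chosen after seeing the data, leaving out shared barcodes moved 0 of 50 each. The interval covers the counting error of the main value only, not that of a subset or of thinned cells. Labelled cells with Y genes were few, at 129 wCAPs, 57 wFAPLs, 50 bCAPs and 47 bFAPLs. Dependence on sex or depth was not tested. No paired analysis was possible because each depot has 1 library and the labels give no replicate numbers. Depth limits the 15 differentiating wFAPLs, where 3 counts come to 6.29 CPM.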

Other observations

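The genes whose levels followed each of the 10 most closely over the 13 clusters of at least 50 cells are given as a description, since the clusters share 2 libraries and were made from these genes. For Inhba they included Actn1, an actin crosslinker (Pearson r = 0.92), and Spry1, an inhibitor of receptor tyrosine kinase signals (0.90). For Fst they were the calcium channel genes Cacna1a (0.92) and Cacnb2 (0.87), and Gnai1 (0.86). Tgfb2 was closest to Vegfa, the angiogenic growth factor (0.82), then Adam19 (0.77) and Qsox1 (0.75). Tgfb3 was closest to Plekhg2 (0.90), Cx3cl1 (0.90) and Zbtb7b (0.88), Lrrc32 to Csf2ra, Hk2 and Eif2b3 (each 0.90), and Ltbp1 to Socs5 (0.91), Znhit6 (0.90) and Jade3 (0.89). Tgfbr2 was closest to Dsel (0.95), Spast (0.94) and Sulf1 (0.93), and Tgfbr3 to Eefsec (0.95), Sfxn5 (0.92) and Rnf213 (0.91). For Tgfb1 the genes were Oaf, Lamtor3 and Hey1 (each 0.91), and for Tgfbr1 Stx6 (0.96), Aggf1 (0.95) and Edc3 (0.95). Without wAPC 4 the values for Tgfb1 dropped to 0.70, 0.50 and 0.76, while those for Actn1 and Spry1 with Inhba were 0.93 and 0.91.

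Levels by cell cycle phase pool all clusters, and phase was not separated from cluster. In WAT, cells scored as S made up 27.4% of wAPC 4, 19.7% of wAPC 1, 19.6% of wAPC 2 and 14.5% of wFAPLs. They made up 13.3% of differentiating wFAPLs, 13.1% of wCAPs and 9.63% of wAPC 3. White precursors scored as S held 134 CPM of Inhba (129-138), against 91.6 (89.4-93.8) in G1 and 91.1 (87.7-94.7) in G2M. Tgfbr3 ran the other way in WAT, with 259 CPM (255-263) in G1 and 179 (174-185) in S. In brown precursors Inhba was at 90.5 CPM in S and 83.0 in G1, and Tgfbr3 at 126 and 143. Ltbp1 in BAT was at 19.4 CPM in G1 and 27.4 in S. Between cells with Xist and cells with Y genes, the largest ratio was 1.12 in WAT and 1.17 in BAT. Values follow for genes whose intervals did not overlap, and the share of such genes over all genes was not computed. In WAT, Tgfb1 was at 33.2 CPM in the former and 29.7 in the latter, and Fst at 105.8 and 98.7. In BAT, Tgfb3 was at 76.0 and 81.4 CPM, Tgfbr3 at 139 and 129.6, Inhba at 80.3 and 85.9, and Lrrc32 at 29.2 and 34.2.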
